A study of Mus musculus with 27 samples.

Results

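Class I antigen presentation was followed through 10 genes, the heavy chains H2-K1 and H2-D1, the light chain B2m, the peptide pump Tap1 and Tap2, the loading factor Tapbp, the immunoproteasome subunits Psmb8, Psmb9 and Psmb10, and the transactivator Nlrc5. They were chosen by gene symbol from the table of array values, each through a transcript annotated with that symbol and no other. Of these 10 genes, 7 had values, out of 21666 genes with 1 symbol and values in the table. The transcripts of B2m and Psmb10 were blank in every array, and H2-D1 stood only in a transcript shared with H2-Q2, so none of these 3 genes is given a value.

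MHC class I molecules display peptides cut from proteins of the cell's own cytosol, so that CD8 T cells can survey what each cell makes. Proteasomes cut the peptides, the immunoproteasome subunits replacing constitutive ones in immune cells and after interferon exposure, the TAP pump moves the peptides into the endoplasmic reticulum, and tapasin (Tapbp) helps to load them onto a heavy chain bound to β2-microglobulin. NLRC5 drives transcription of class I genes as CIITA does for class II, and resting microglia are known for low class I expression.

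The samples were mouse (C57BL/6) cell populations hybridised to 27 whole-transcript arrays in 9 groups, and the values are log2 signals, on which a difference of 1 is a 2-fold change. F4/80hi and F4/80low cells came from the brains of Cx3cr1CreER/+R26DTA/+ mice, in which tamoxifen on 3 days switches on diphtheria toxin A in CX3CR1-expressing cells. They were sorted as CD11b+CX3CR1hi cells that were F4/80hi or F4/80low, 4 weeks (2 F4/80hi and 3 F4/80low arrays) or 12 weeks (3 arrays each) after tamoxifen. The study's text gives both subsets as sorted from the same brains, whereas the main tests below treat their arrays as unpaired. DTR microglia (2 arrays) were CD11b+CX3CR1hi brain cells of Cx3cr1CreER/+R26DTR/+ mice, which received tamoxifen doses 48 h apart, diphtheria toxin on 3 days from 3 weeks later, and were sorted 2 weeks after the toxin. Their label calls them F4/80low, although that sort held no gate on this marker. Ly6Chi monocytes (5 arrays) were isolated from bone marrow with a magnetic kit, red pulp macrophages (RPM, 2 arrays) were F4/80hi spleen cells and intestinal macrophages (2 arrays) were selected as CX3CR1hiCD64+MHCII+ cells, all labelled naive. Naive microglia (5 arrays) were CD11b+CX3CR1hi brain cells. The study's text gives them as from tamoxifen-treated Cx3cr1CreER/+ controls, and the labels leave room for untreated mice as well. These controls carry the Cre but neither the toxin nor its receptor. The Cre is driven by the Cx3cr1 promoter, which is active in other mononuclear phagocytes besides microglia. Each sample was RNA pooled from several mice. Batch 1 held the 12-week and DTR arrays, and batch 2 the 4-week, RPM and intestinal macrophage arrays. Naive microglia and monocytes lay in both batches. Some naive microglia and monocyte arrays were technical repeats of the same RNA, and the labels do not say which, so p-values against these groups can be too small. In a sorted population, a change in the share of cells that express a gene and a change per cell cannot be told apart.

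The median log2 signal of an array was 5.06 to 5.23, and correlations within groups over all transcripts tested ran from 0.968 to 0.989. Homeostatic microglia markers (8 of 10 with values) averaged 9.76 to 10.05 in F4/80hi 12w cells, 11.09 to 11.81 in the other repopulated CNS arrays and 11.54 to 11.73 in naive microglia, with no marker at or below the array median in any of them. Neutrophil markers (10 of 10 with values) averaged 8.97 in replicate 1 of F4/80hi 4w and 8.93 and 8.80 in replicates 1 and 2 of F4/80low 4w, against 6.64 and 6.42 in the remaining array of each group and 5.23 to 5.43 in naive microglia. The same 3 arrays had the highest Ly6Chi monocyte markers of the CNS arrays, at 7.78, 7.40 and 8.04, against 5.20 to 5.62 in naive microglia, so the 4-week Nlrc5 results are given with and without them. Border macrophage markers (5 of 6 with values) averaged 7.12 to 7.78 in F4/80hi cells, 5.70 to 6.78 in F4/80low 4w cells, 5.26 to 5.37 in F4/80low 12w cells, 5.20 to 5.30 in DTR microglia and 4.93 to 5.54 in naive microglia. The part of these other cell types in the results below was not tested.

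A gene is called here where its adjusted p was under 0.05 (limma across 32245 transcripts, Benjamini-Hochberg) and its change exceeded 2-fold. By this rule, 3 of the 7 measured genes were higher in DTR microglia than in naive microglia (0.754% of all transcripts were called in that comparison), namely Nlrc5, H2-K1 and Tap1. In F4/80hi cells against naive microglia, Nlrc5 was the gene called, both at 12 weeks (2.99% of all transcripts called) and at 4 weeks (2.55%). In F4/80low cells against naive microglia, none was called at 12 weeks (0.115%; none at an unadjusted p under 0.05 either), and Nlrc5 was called at 4 weeks (1.00%). At an adjusted p under 0.05 with no fold threshold, H2-K1 joined Nlrc5 in F4/80hi 12w cells (6.39% of all transcripts), F4/80hi 4w cells (4.25%) and F4/80low 4w cells (1.87%). The median log2 difference of the 7 genes from naive microglia was 0.54 in DTR microglia, 0.43 in F4/80hi 4w, 0.33 in F4/80hi 12w, 0.28 in F4/80low 4w and 0.07 in F4/80low 12w cells, while the medians over all transcripts tested lay between -0.04 and 0.01. All 5 comparisons share the naive arrays. Because the fit holds a batch term, the differences given here depart from those between group means, for some genes in sign. Tap1 in F4/80low 12w cells was 0.07 above naive microglia in the fit, although its group mean of 10.08 lay below the naive mean of 10.22.

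**Figure D1:**
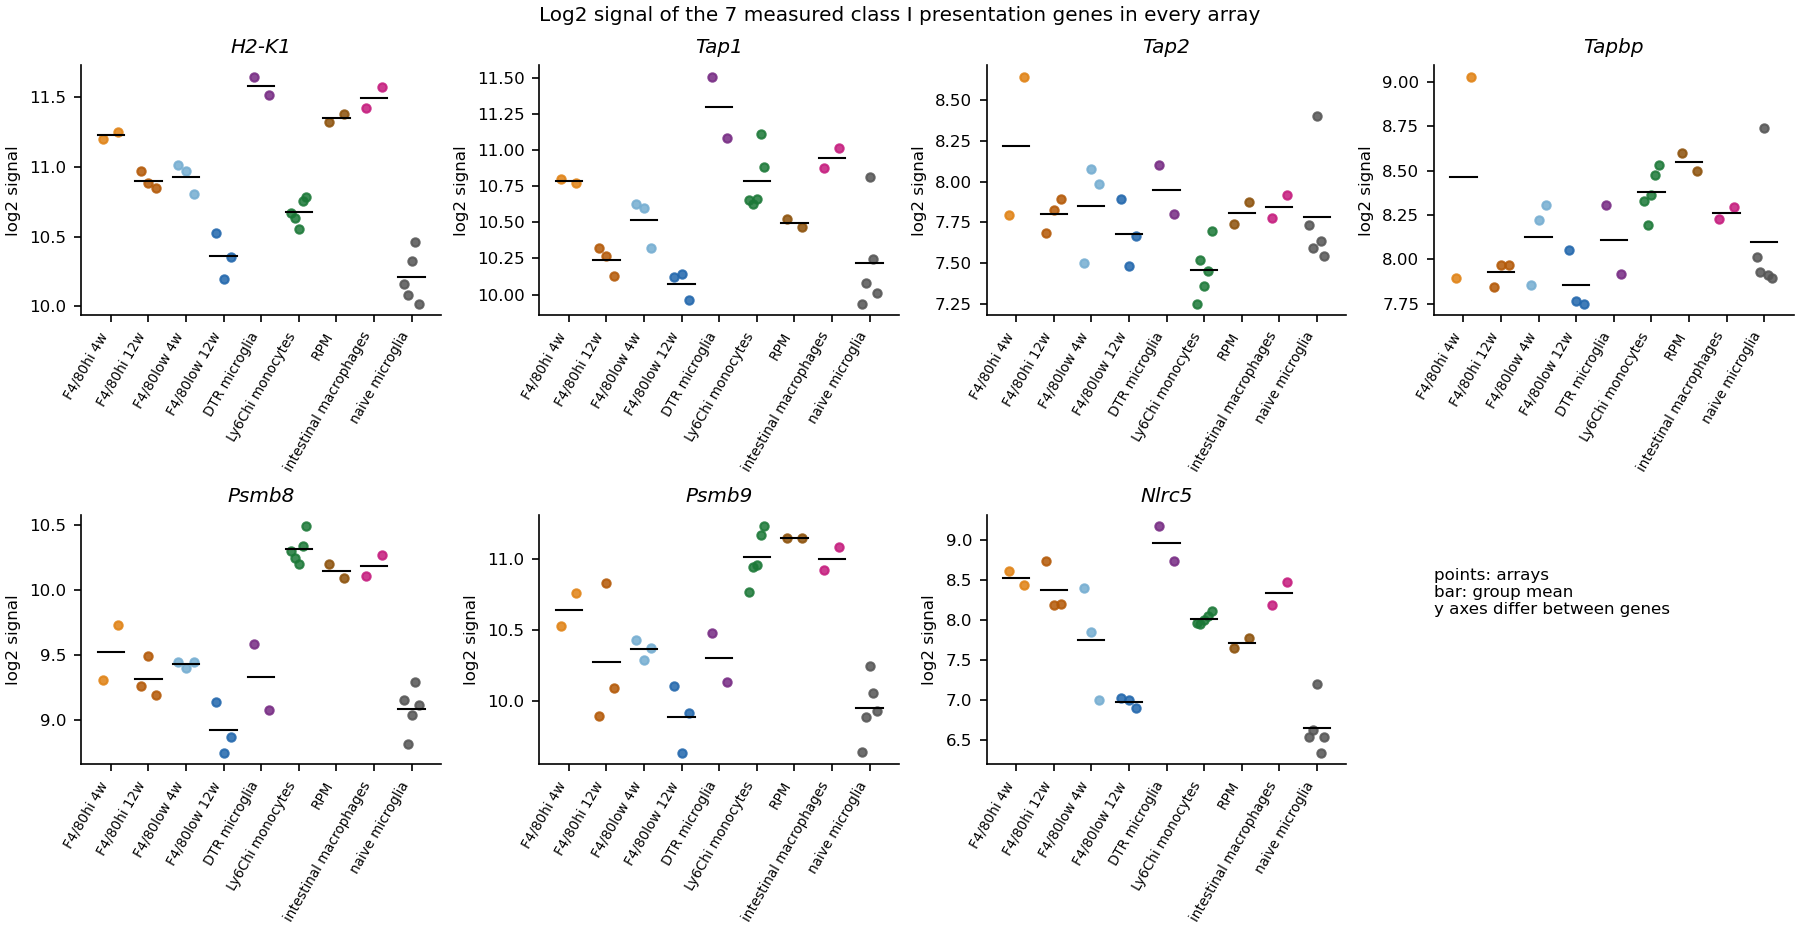
Log2 signal (y axis, a scale of its own for each gene) of the 7 measured class I presentation genes in every array, by sample group (x axis). Points are arrays and bars are group means. Nlrc5 spans 6.34 to 9.17, with every DTR and F4/80hi array above every naive array. For Tap2 and Tapbp each group overlaps the group of next lower mean, but groups further apart can be separate. For Tapbp both RPM arrays (lowest 8.50) lie above all F4/80hi 12w arrays (highest 7.97).

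Nlrc5, the class I transactivator, had the widest range of the 7 genes, with group means spread over 2.31 log2 units and a pooled SD between arrays of 0.315. It measured 9.17 and 8.74 in DTR microglia, against 6.54, 6.62, 7.20, 6.34 and 6.54 in naive microglia. In F4/80hi cells it measured 8.61 and 8.44 at 4 weeks and 8.73, 8.18 and 8.19 at 12 weeks. All 7 of these DTR and F4/80hi arrays lay above all 5 naive arrays, the highest of which was replicate 3. Nlrc5 was 5.18-fold higher in DTR than in naive microglia (log2 2.37 ± 0.28 SE, adjusted p = 1.26e-05), 3.56-fold higher in F4/80hi 4w cells (1.83 ± 0.26, adjusted p = 5.01e-05) and 3.45-fold higher in F4/80hi 12w cells (1.79 ± 0.25, adjusted p = 2.00e-05). The F4/80hi 4w call held with replicate 1, the array with more neutrophil transcripts, left out (log2 1.75, adjusted p = 0.00244), but the group is then a single array that is assumed to vary like the other groups.

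In F4/80low cells the Nlrc5 call rested on single arrays. Nlrc5 measured 8.40, 7.85 and 7.01 in F4/80low 4w cells and 7.03, 7.00 and 6.91 in F4/80low 12w cells, so that replicate 3 of the 4-week group and all 12-week arrays lay below the highest naive array. The difference from naive microglia was 1.06 ± 0.23 on the log2 scale at 4 weeks (adjusted p = 0.0133) and 0.40 ± 0.25 at 12 weeks (95% interval -0.12 to 0.91, adjusted p = 0.933). The 4-week call was lost without replicate 1 (0.74, adjusted p = 0.155), without replicate 2 (1.01, adjusted p = 0.0725) and without naive replicate 4 (0.93, adjusted p = 0.0579). It was also lost with batch 2 fitted on its own (adjusted p = 0.222) and with the naive and monocyte arrays, which include the technical repeats, averaged within each batch (adjusted p = 0.388). Without the 3 arrays with more neutrophil transcripts, a setting chosen after the data were seen, F4/80low 4w was a single array, again assumed to vary like the other groups, and the difference was 0.31 (adjusted p = 0.765).

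H2-K1, a classical class I heavy chain, had the same order of CNS group means as Nlrc5, except that its F4/80low 4w mean lay just above its F4/80hi 12w mean. These 2 groups lie in different batches. In the fit with the batch term F4/80hi 12w cells stood higher, at 0.78 against 0.66 over naive microglia. It measured 11.65 and 11.51 in DTR microglia, 11.20 and 11.25 in F4/80hi 4w cells, 10.97, 10.89 and 10.85 in F4/80hi 12w cells and 11.01, 10.97 and 10.81 in F4/80low 4w cells. F4/80low 12w cells had 10.53, 10.20 and 10.35, and naive microglia 10.16, 10.08, 10.33, 10.46 and 10.02, and these last 2 groups overlapped. Against naive microglia H2-K1 was 2.75-fold higher in DTR microglia (log2 1.46 ± 0.14, adjusted p = 1.71e-06). It was 1.94-fold higher in F4/80hi 4w cells (0.96 ± 0.14, adjusted p = 4.19e-05), 1.72-fold higher in F4/80hi 12w cells (0.78 ± 0.13, adjusted p = 1.62e-04) and 1.58-fold higher in F4/80low 4w cells (0.66 ± 0.12, adjusted p = 0.00208), short of the 2-fold rule. In F4/80low 12w cells the difference was 0.24 (95% interval -0.03 to 0.50, adjusted p = 0.871). With the naive and monocyte arrays averaged within batch, the adjusted p was 0.00621 for F4/80hi 4w, 0.0101 for F4/80hi 12w and 0.146 for F4/80low 4w cells. The F4/80low 4w difference also did not pass with batch 2 alone (adjusted p = 0.0851) or without the 3 arrays with more neutrophil transcripts (0.54, adjusted p = 0.257), a setting in which H2-K1 in F4/80hi 4w cells was at 0.98 (adjusted p = 0.00135). Mouse class I heavy chains are near-identical in sequence, and whether the H2-K1 probes also bound other class I transcripts was not tested.

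Tap1, a subunit of the peptide pump, rose in DTR microglia, at 11.51 and 11.08 against 9.94, 10.08, 10.81, 10.25 and 10.01 in naive microglia. Both DTR arrays lay above the highest naive array, again replicate 3. The difference was 2.44-fold (log2 1.29 ± 0.18, adjusted p = 1.38e-04). In the 4 groups of the toxin A model the log2 differences of Tap1 from naive microglia were 0.07 to 0.43, with adjusted p from 0.243 to 0.998, and no array of these groups lay above the highest naive array. Whether the DTR response of Tap1 differed from that of F4/80hi cells was not tested.

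The promoters of H2-K1 and Tap1 are shown because these are the members that rose with Nlrc5 in DTR microglia and have a promoter in the reference. Of the 10 genes, 8 had a RefSeq promoter window (GRCm38.p6, 250 bases before to 50 after the start), and Tap2 and Nlrc5 had none. Capitals mark matches, on either strand, to 5 motifs: the interferon-stimulated response element core GAAANNGAA, the gamma-activated site TTCNNNGAA, the kappaB core GGGNNTTCC, the X2 box or cyclic AMP response core TGACG and the Y box CCAAT. The first of these windows lies at chr17:34000298-34000597 (minus strand) and the second at chr17:34187306-34187605 (plus strand).
H2-K1: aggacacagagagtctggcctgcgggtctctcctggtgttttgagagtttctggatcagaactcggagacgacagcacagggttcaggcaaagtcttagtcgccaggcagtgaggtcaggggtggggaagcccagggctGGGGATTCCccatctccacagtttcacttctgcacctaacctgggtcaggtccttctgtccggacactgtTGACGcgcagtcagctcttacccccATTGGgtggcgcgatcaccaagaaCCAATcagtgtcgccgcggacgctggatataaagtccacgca
Tap1: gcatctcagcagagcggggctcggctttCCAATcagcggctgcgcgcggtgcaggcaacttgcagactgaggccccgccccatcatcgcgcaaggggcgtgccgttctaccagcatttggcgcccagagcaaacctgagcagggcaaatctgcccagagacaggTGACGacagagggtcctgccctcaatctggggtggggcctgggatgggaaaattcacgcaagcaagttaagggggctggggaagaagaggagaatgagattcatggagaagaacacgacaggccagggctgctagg
The Tap1 window shares 275 bases with that of Psmb9 on the opposite strand, the 2 genes being transcribed away from each other. The H2-K1 window held 1 kappaB core 111 bases before the start, 1 TGACG match 41 bases before it and a Y box on each side of it, and the Tap1 window held a TGACG match 86 bases and a Y box 222 bases before the start. The kappaB core stood in 5.82% of all 32851 promoter windows, TGACG in 20.8% and the Y box in 37.4%. Of the 9 windows of members, 6 held TGACG, 7 a Y box and 3 the kappaB core, the last being those of the heavy chains H2-K1 (with 2 windows) and H2-D1. These windows are not independent. The TGACG and Y box matches of Tap1 and Psmb9 are the same bases, and the 2 overlapping H2-K1 windows hold the same matches. The GAAANNGAA core was found in the window of B2m (8.56% of all windows), and TTCNNNGAA in that of Psmb8 (8.30%). These matches describe the letters, and no match overlapped another in the windows printed. Only these spellings were searched, so a window without a match can still hold another form of the same element.

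Tap2, the partner of Tap1 in the pump, and Tapbp, the tapasin gene, passed the test in no comparison as fitted here. After quantile normalization Tap2 passed by adjusted p in F4/80hi 12w (0.77, adjusted p = 8.29e-04) and F4/80hi 4w cells (0.85, adjusted p = 0.00259) against monocytes and in monocytes against naive microglia (-0.53, adjusted p = 0.00430). Tap2 measured 8.10 and 7.80 in DTR microglia and 7.80 and 8.65 in F4/80hi 4w cells, against 7.73, 7.60, 8.41, 7.64 and 7.55 in naive microglia. Tapbp measured 8.31 and 7.92 in DTR microglia and 7.90 and 9.03 in F4/80hi 4w cells, against 8.02, 7.93, 8.74, 7.91 and 7.89 in naive microglia. Replicate 2 of F4/80hi 4w and replicate 3 of naive microglia were thus the highest arrays for both genes. The deviations of Tap2 and Tapbp from their group means correlated at r = 0.918 over the 27 arrays, which share batch and scaling, against values up to 0.651 for the other combinations of the 7 genes. Their log2 differences from naive microglia in the 5 repopulated groups lay between -0.11 and 0.36, the lowest interval reaching -0.58 and the highest 0.83.

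The immunoproteasome subunits Psmb8 and Psmb9, which replace constitutive catalytic subunits, did not pass the test in any repopulated CNS group as fitted here, but did so by adjusted p in F4/80hi 12w cells after quantile normalization (Psmb8 0.48, adjusted p = 0.0105, Psmb9 0.71, adjusted p = 0.00472). Psmb8 measured 9.59 and 9.08 in DTR microglia, 9.31 and 9.74 in F4/80hi 4w and 9.26, 9.50 and 9.19 in F4/80hi 12w cells, against 9.16, 8.82, 9.04, 9.30 and 9.12 in naive microglia. The F4/80hi 4w arrays lay above the naive arrays, 1 of them narrowly, and the DTR and F4/80hi 12w arrays overlapped them. Psmb9 measured 10.48 and 10.13 in DTR microglia, 10.53 and 10.76 in F4/80hi 4w and 9.90, 10.84 and 10.09 in F4/80hi 12w cells, against 9.64, 9.89, 10.25, 10.06 and 9.93 in naive microglia. Here too the F4/80hi 4w arrays lay above the naive arrays, while replicate 2 of F4/80hi 12w stood well above the other arrays of its group. Psmb9 differed from naive microglia by 0.54 (95% interval 0.11 to 0.96, adjusted p = 0.368) in DTR microglia, 0.57 (0.17 to 0.97, adjusted p = 0.127) in F4/80hi 4w and 0.51 (0.13 to 0.89, adjusted p = 0.120) in F4/80hi 12w cells. For Psmb8 the differences in these 3 groups were 0.33 to 0.37, with adjusted p from 0.278 to 0.606. In F4/80low cells the differences of both genes were -0.06 to 0.29.

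**Figure D2:**
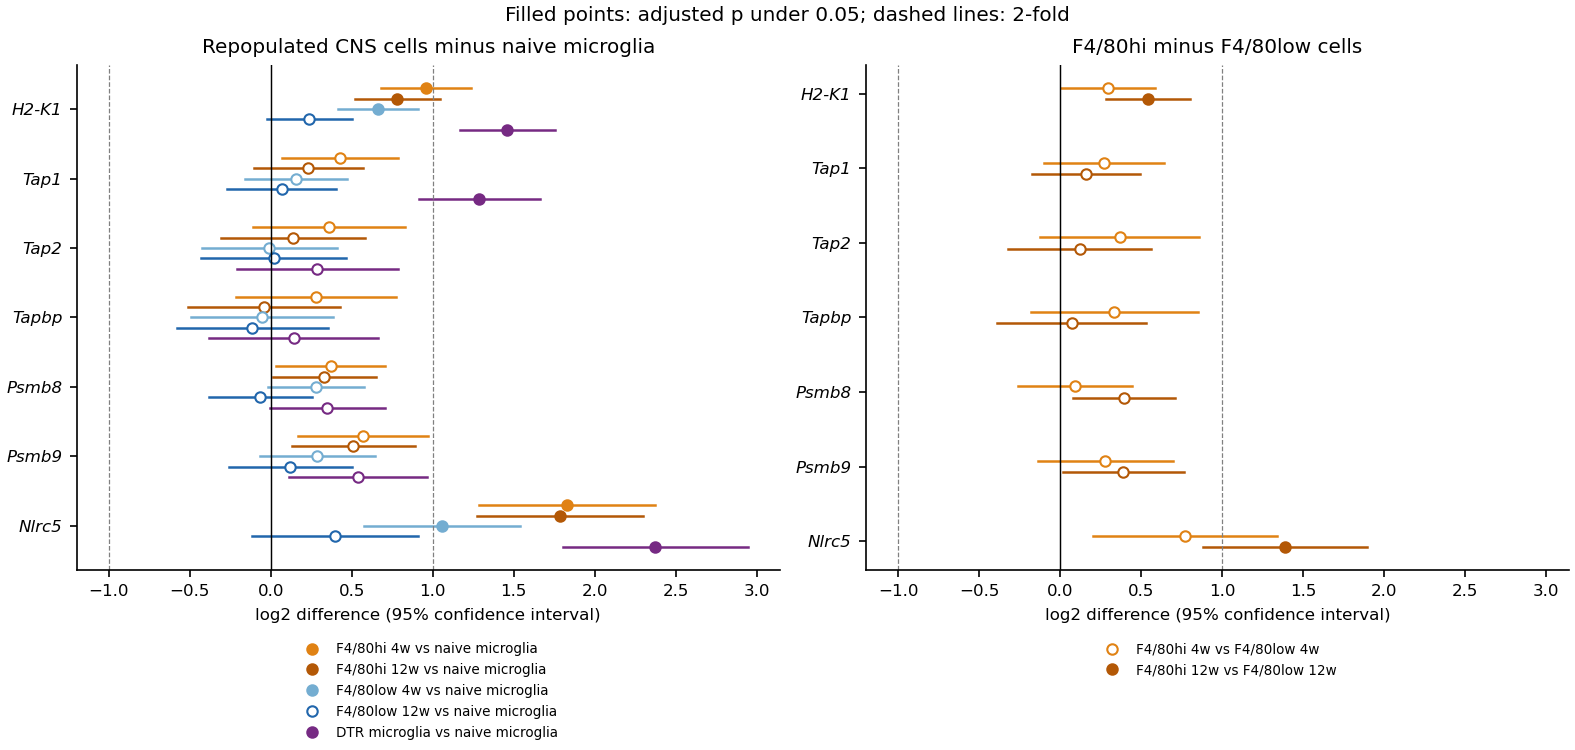
Log2 differences (x axis, with 95% confidence intervals) of the 7 genes (y axis) in repopulated CNS cells minus naive microglia (left) and in F4/80hi minus F4/80low cells of the same week (right). Filled points have an adjusted p under 0.05, dashed lines mark 2-fold. Nlrc5 reaches 2.37 and H2-K1 1.46 in DTR microglia, and the intervals of F4/80low 12w cells include 0 for all 7 genes.

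Between the subsets sorted from depleted brains at the same week, Nlrc5 was again the gene called. At 12 weeks it measured 8.73, 8.18 and 8.19 in F4/80hi cells, against 7.03, 7.00 and 6.91 in F4/80low cells, with no overlap (2.62-fold, log2 1.39 ± 0.24, adjusted p = 4.70e-04, with 2.51% of all transcripts called). By the methods' t-test with Benjamini-Hochberg adjustment over all transcripts this call was lost (adjusted p = 0.0898). H2-K1 was 1.46-fold higher in F4/80hi 12w cells (log2 0.54 ± 0.13, adjusted p = 0.00788) and passed by adjusted p alone, as did 5.29% of all transcripts, but not by the methods' t-test (adjusted p = 0.163). The other 5 genes were 0.07 to 0.40 higher, with adjusted p from 0.173 to 0.942, and among them Psmb8 passed by adjusted p after quantile normalization (0.46, adjusted p = 0.0152). In the same arrays border macrophage markers averaged 7.12 to 7.78 in F4/80hi 12w cells and 5.26 to 5.37 in F4/80low 12w cells, and their part in these differences was not tested. At 4 weeks none was called (0.440% of all transcripts). There Nlrc5 measured 8.61 and 8.44 in F4/80hi cells, against 8.40, 7.85 and 7.01 in F4/80low cells (log2 0.77 ± 0.27, adjusted p = 0.369), and without the 3 arrays with more neutrophil transcripts the difference was 1.43 (adjusted p = 0.0246).

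Time after depletion moved none of the 7 genes past the test. F4/80hi 12w cells were lower than F4/80hi 4w cells for all 7 genes, the log2 differences running from -0.32 to -0.04 (0.171% of all transcripts called). F4/80low 12w cells were lower than F4/80low 4w cells for 6 of 7, with H2-K1 at -0.42 (adjusted p = 0.351) and Nlrc5 at -0.66 (adjusted p = 0.485), where 0.183% of all transcripts were called. These time points lie in different batches and are set against each other through the naive and monocyte arrays that both batches hold. The change of the F4/80hi to F4/80low difference with time was called for none of them either (0.118%), Nlrc5 being at 0.62 (95% interval -0.14 to 1.38, adjusted p = 0.810). At an unadjusted p under 0.05 there were 0 of 7 genes for F4/80hi cells, 2 for F4/80low cells (H2-K1 and Nlrc5) and 0 for the change of the difference. The share of all transcripts at this unadjusted p is not given, so these counts cannot be set against a background.

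The peripheral myeloid cells were higher than naive microglia in both immunoproteasome subunits. Psmb8 measured 10.30, 10.25, 10.20, 10.34 and 10.49 in Ly6Chi monocytes, 10.20 and 10.10 in RPM and 10.11 and 10.27 in intestinal macrophages, all above the highest naive microglia array at 9.30. Psmb9 likewise measured 10.77 to 11.24 in monocytes, 11.15 and 11.15 in RPM and 10.93 and 11.08 in intestinal macrophages, against 9.64 to 10.25 in naive microglia. Psmb8 was 2.40-fold higher in monocytes than in naive microglia (adjusted p = 4.04e-09), 1.99-fold in RPM (adjusted p = 3.07e-05) and 2.05-fold in intestinal macrophages (adjusted p = 2.23e-05). For Psmb9 these values were 2.18-fold (adjusted p = 5.50e-07), 2.10-fold (1.14e-04) and 1.90-fold (6.78e-04).

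In each peripheral population 3 of the 7 genes were called against naive microglia, all higher, where 9.15% (monocytes), 8.51% (RPM) and 7.09% (intestinal macrophages) of all transcripts were called higher. Intestinal macrophage arrays also had B and plasma cell markers (6 of 8 with values) at 9.26 to 9.53, against 5.16 to 5.45 in naive microglia, and dendritic cell markers (6 of 7) at 7.49 to 7.71, against 5.16 to 5.29 in naive microglia. Neutrophil markers were at 9.01 to 9.67 in monocytes and 6.86 to 6.96 in RPM, against 5.23 to 5.43 in naive microglia, and the part of these cell types in the differences was not tested. Nlrc5 was among the 3 genes called in monocytes (7.95 to 8.11, 2.61-fold), RPM (7.65 and 7.77, 2.02-fold) and intestinal macrophages (8.19 and 8.48, 3.11-fold), against 6.34 to 7.20 in naive microglia. H2-K1 was called in RPM (11.32 and 11.38, 2.12-fold) and intestinal macrophages (11.42 and 11.57, 2.34-fold). By adjusted p alone 5 genes passed in monocytes (34.1% of all transcripts), 4 in RPM (31.4%) and 5 in intestinal macrophages (26.7%). Many of these folds sat close to the 2-fold limit, and after quantile normalization the numbers called were 1, 0 and 1, with Psmb8 at 0.93 in monocytes, 0.77 in RPM and 0.80 in intestinal macrophages on the log2 scale. Over all transcripts, calls in either direction then numbered 4401, 4842 and 4142, against 4718, 5080 and 4206 as fitted here.

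F4/80hi cells were also set against the peripheral populations. F4/80hi 12w cells lie in a different batch from RPM and intestinal macrophages. They are set against these through the naive and monocyte arrays that both batches hold. None of the 7 genes was called in F4/80hi 12w cells against monocytes (14.2% of all transcripts called), RPM (16.0%) or intestinal macrophages (11.4%), nor in F4/80hi 4w cells against monocytes (12.5%). Psmb8 was 1.91-fold lower in F4/80hi 12w cells than in monocytes (log2 -0.93 ± 0.14, adjusted p = 1.25e-05) and 1.86-fold lower in F4/80hi 4w cells (-0.89 ± 0.17, adjusted p = 2.84e-04). It was also lower in F4/80hi 12w cells than in RPM (1.58-fold, adjusted p = 0.0204) and intestinal macrophages (1.63-fold, adjusted p = 0.0192). No F4/80hi array reached the lowest peripheral array at 10.10. The median over the 7 genes was -0.37 in F4/80hi 12w cells against monocytes and turned to 0.0922 after quantile normalization, where Psmb8 was at -0.45 (adjusted p = 0.00266). In that setting H2-K1 (0.77, adjusted p = 1.95e-05) and Nlrc5 (0.84, adjusted p = 0.0162) passed as higher in F4/80hi 12w cells. By adjusted p alone, F4/80hi 12w cells had 3 genes lower than in monocytes (31.1% of all transcripts), Psmb8, Psmb9 (-0.62) and Tap1 (-0.41), and Psmb8 was the gene that passed against RPM (25.0%) and intestinal macrophages (17.9%). With the naive and monocyte arrays averaged within batch, Psmb9 (adjusted p = 0.111) and Tap1 (0.140) no longer passed against monocytes, nor Psmb8 against RPM (0.116) and intestinal macrophages (0.124). After quantile normalization these 4 did not pass either (adjusted p from 0.175 to 0.722). F4/80hi 4w cells had Psmb8 lower and H2-K1 higher (0.46, adjusted p = 0.0201) than in monocytes (22.5%). H2-K1 no longer passed there with the naive and monocyte arrays averaged within batch (adjusted p = 0.0992) or with batch 2 alone (0.116). Nlrc5 differed from monocytes by 0.40 in F4/80hi 12w cells (95% interval -0.08 to 0.88, adjusted p = 0.216).

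Other genes of the class I pathway were taken from lists chosen by function. Of 10 measured genes of peptide loading and trimming (chaperones, the Sec61 channel and the trimming peptidase Erap1), 10 proteasome activator and assembly genes and 13 constitutive proteasome core subunits, none passed an adjusted p of 0.05 by limma in any of the 5 repopulated groups against naive microglia. In F4/80hi 12w cells the loading chaperone Calr was at -0.46 (adjusted p = 0.102), Erap1 at -0.36 (adjusted p = 0.431) and the constitutive catalytic subunit Psmb5 at -0.51 (adjusted p = 0.291). In DTR microglia the activator subunits Psme1 and Psme2 were at 0.46 (adjusted p = 0.306) and -0.55 (adjusted p = 0.310). In monocytes against naive microglia, 11 of the 13 constitutive subunits rose beside Psmb8 and Psmb9, among them Psma7 at 2.30 (adjusted p = 6.00e-12), with a list median of 1.09, where 9.15% of all transcripts were called higher. In RPM 5 of 13 rose (median 0.92, 8.51% of all transcripts higher), and in intestinal macrophages 2 of 13 (median 0.79, 7.09% of all transcripts higher).

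Among other class I chains (16 of 26 listed had values), 2 were called higher in DTR microglia (where 0.754% of all transcripts were called in either direction), H2-Q4, a non-classical heavy chain, and H2-M3, which presents formylated peptides. H2-Q4 measured 7.61 and 7.77 in DTR microglia, against 5.63 to 6.19 in naive microglia (log2 1.88 ± 0.20, adjusted p = 6.01e-06). H2-M3 measured 9.18 and 9.76 in DTR microglia, against 8.16 to 8.62 in naive microglia (1.08 ± 0.21, adjusted p = 0.00668). In F4/80hi 12w cells 1 of the 16 was called (2.99% of all transcripts), the neonatal Fc receptor chain Fcgrt, which was lower (-1.06 ± 0.23, adjusted p = 0.00326), while H2-M3 was at 0.76 (adjusted p = 0.0124). In F4/80hi 4w cells H2-T10 was the 1 chain called of 16, against 2.55% of all transcripts (1.36, adjusted p = 5.83e-04). None of the 16 passed in F4/80low cells at either time point.

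Of 19 measured regulators of class I genes, DTR microglia had 1 called (0.754% of all transcripts), Stat2, a subunit of the interferon-stimulated factor ISGF3. Stat2 measured 10.57 and 11.01 in DTR microglia, against 9.11 to 9.76 in naive microglia (log2 1.60 ± 0.19, adjusted p = 1.54e-05). The interferon-induced factor Irf1 was at 0.19 (adjusted p = 0.891) and Irf9 at 0.46 (adjusted p = 0.297). In F4/80hi 4w cells Ciita, the class II transactivator and relative of Nlrc5, was called (1.26, adjusted p = 0.00727), and Stat2 was at 0.76 (adjusted p = 0.0115). In F4/80hi 12w cells Ciita was at 0.99, just short of the 2-fold rule.

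Of the class II presentation genes, 9 of 10 listed were measured, among them Ciita, which is also in the list of regulators. In F4/80hi 12w cells (2.99% of all transcripts called) 4 of them rose against naive microglia, the chains H2-Eb1 (2.41, adjusted p = 7.93e-04), H2-Ab1 (2.24, adjusted p = 5.02e-05) and H2-Aa (2.11, adjusted p = 0.00391) and the peptide editor H2-DMb2 (1.22, adjusted p = 3.94e-06), and the editor inhibitor subunit H2-Oa fell (-1.98, adjusted p = 6.75e-06). In F4/80hi 4w cells 4 of the 9 rose (2.55% of all transcripts called), in F4/80low 4w cells 3 (1.00%), and in F4/80low 12w cells none was called (0.115%). In DTR microglia, where Nlrc5, H2-K1 and Tap1 had their highest means, none of the 9 was called, H2-Ab1 being at 0.24 (95% interval -0.53 to 1.01, adjusted p = 0.955). H2-DMb2 passed there by adjusted p alone (0.74, adjusted p = 0.0264). H2-Aa varied widely among the naive arrays, from 5.63 to 8.71.

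**Figure D3:**
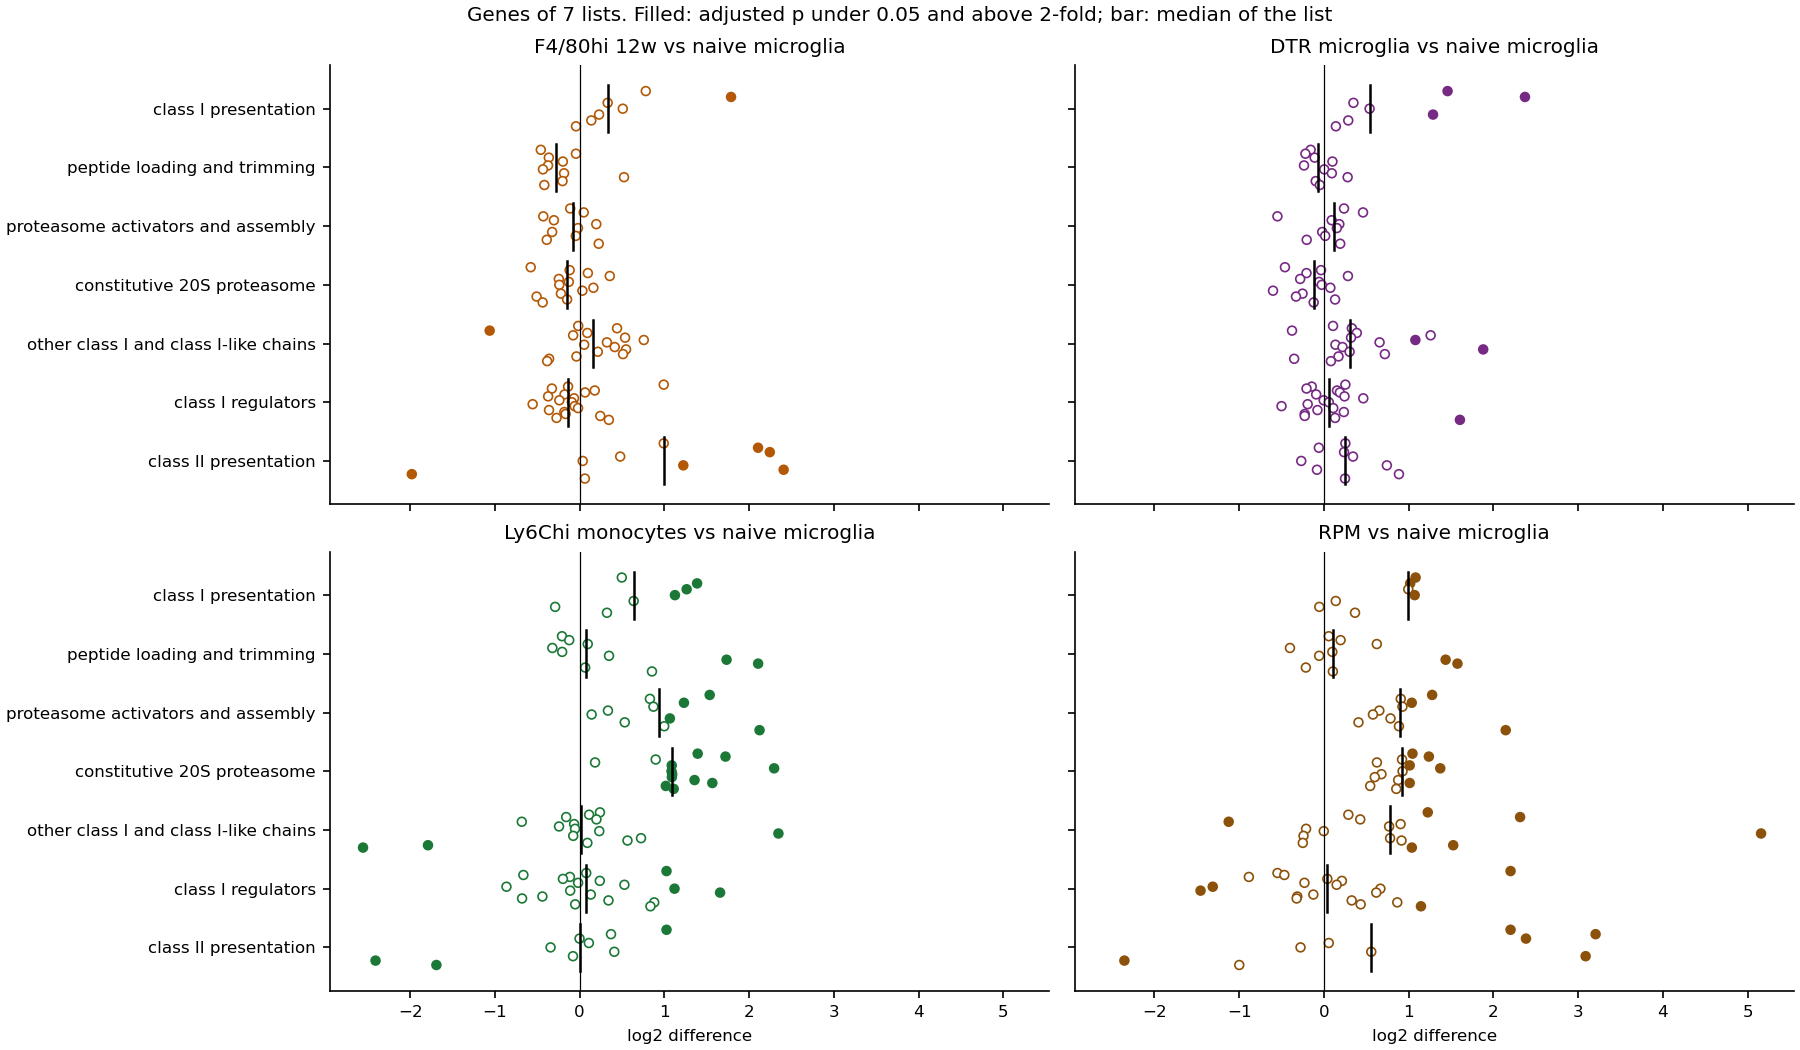
Log2 differences (x axis) of every measured gene of 7 lists (y axis), for F4/80hi 12w cells, DTR microglia, Ly6Chi monocytes and RPM, each against naive microglia. Filled points passed an adjusted p under 0.05 and 2-fold, and bars are list medians. The class I genes have medians of 0.33, 0.54, 0.64 and 1.00, and constitutive proteasome subunits are shifted to the right in monocytes and RPM, with medians of 1.09 and 0.92.

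Across the 9 groups the 7 genes did not share 1 profile. Group means of Psmb8 and Psmb9 correlated at r = 0.973, and those of Nlrc5 and H2-K1 at r = 0.835, while Psmb8 and Tap2 had r = -0.247. Over the 6 CNS groups Nlrc5 and H2-K1 had r = 0.966. These correlations over group means are descriptions, and the group means here and below hold no batch term. H2-K1 was highest in DTR microglia (11.58 ± 0.10 SD) and intestinal macrophages (11.49 ± 0.10), whose arrays overlapped, and lowest in F4/80low 12w cells (10.36 ± 0.17) and naive microglia (10.21 ± 0.18), which overlapped too. Nlrc5 was highest in DTR microglia (8.95 ± 0.31), followed by F4/80hi 4w (8.52 ± 0.12), F4/80hi 12w (8.37 ± 0.31) and intestinal macrophages (8.33 ± 0.21), of which F4/80hi 12w overlapped both of its neighbours. For Psmb8 and Psmb9 the 3 peripheral groups had the highest means, at 10.15 to 10.32 and 11.00 to 11.15. Every peripheral array lay above every CNS array for Psmb8, and for Psmb9 replicate 2 of F4/80hi 12w overlapped the monocytes. Tap1 was highest in DTR microglia (11.30 ± 0.30) and lowest in F4/80low 12w cells (10.08 ± 0.10), whose arrays overlapped naive microglia (10.22 ± 0.35). In the fit with the batch term Tap1 in F4/80low 12w cells was 0.07 above naive microglia.

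The genes most like the mean z-scored profile of the 7 genes over the 9 groups were Oasl2 (r = 0.967), Slfn5 (0.943), Senp5 (0.937), Zbp1 (0.937), Irf7 (0.933), 1810007C17Rik (0.925), Oasl1 (0.924), B230217O12Rik (0.923), Rnf213 (0.913) and Pign (0.912), among 21659 genes. Oasl2, Zbp1, Irf7 and Oasl1 are known as interferon-induced genes. Irf7 averaged 10.21 in DTR microglia, 9.80 in F4/80hi 4w, 8.62 in F4/80hi 12w, 8.89 in F4/80low 4w, 7.64 in F4/80low 12w and 7.74 in naive microglia. In the peripheral groups it averaged 9.82 in monocytes, 11.28 in RPM and 10.41 in intestinal macrophages. Oasl1 averaged 7.94 in DTR microglia, 8.31 in F4/80hi 4w, 6.37 in F4/80hi 12w, 7.14 in F4/80low 4w, 5.16 in F4/80low 12w and 5.35 in naive microglia. Its peripheral means were 6.10 in monocytes, 8.06 in RPM and 8.62 in intestinal macrophages. The group means of 1810007C17Rik (3.75 to 4.09) and B230217O12Rik (4.50 to 4.83) lay below all array medians. Over the 6 CNS groups the closest genes were Zmiz2, Oasl1, Cks1b, Tspyl4 and Kif21a, with r from 0.987 to 0.993, a ranking over 6 points.

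**Figure D4:**
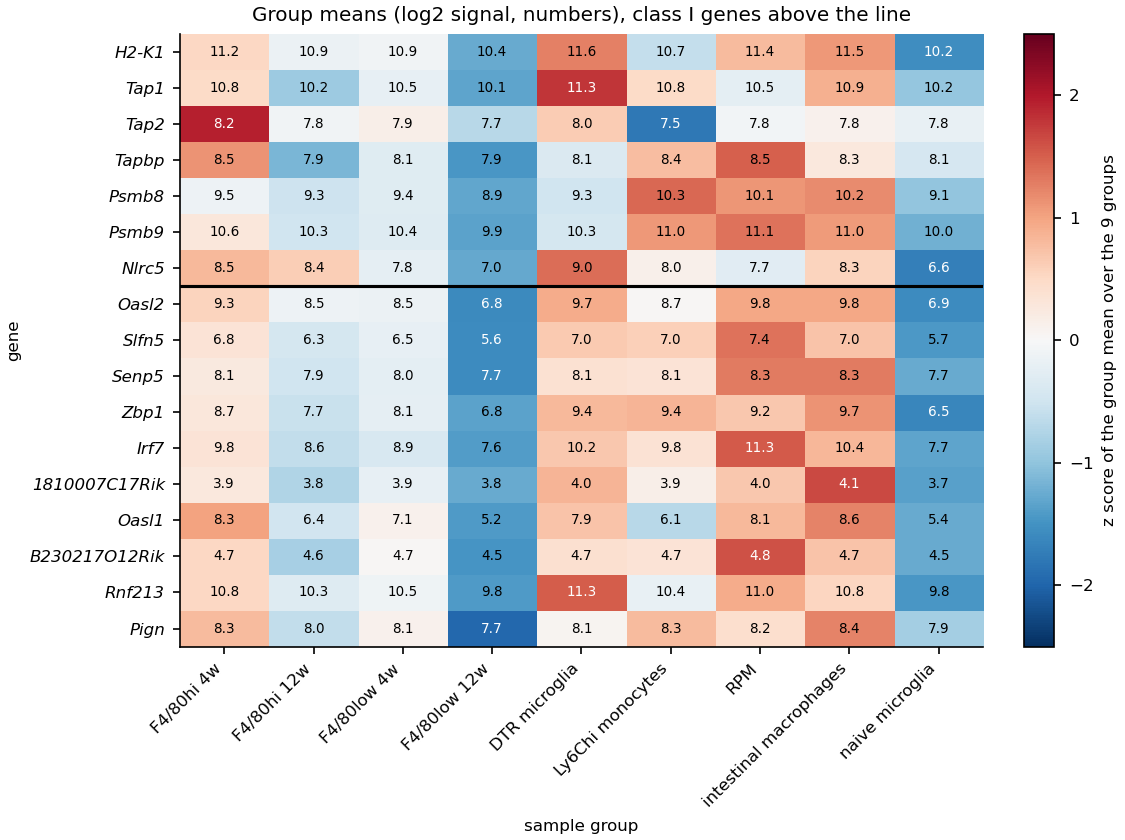
Group means in log2 signal (numbers) of the 7 class I genes (above the line) and of the 10 genes with the most similar mean profile (below it), coloured by z score over the 9 sample groups (x axis). Columns of F4/80low 12w cells and naive microglia are low for most genes, Irf7 averaging 11.28 in RPM and 10.21 in DTR microglia, against 7.74 in naive microglia.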

How the data were processed

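RNA of sorted cell pools was hybridised to Affymetrix Mouse Gene ST arrays, and the deposited table holds the authors' normalized log2 values of 41345 transcripts in 27 arrays. Per the labels the submitters used Partek. Its version, the normalization and the genome build were not given in the sources used here. The deposited values had already been adjusted for batch, since naive microglia and monocytes differed between the 2 batches by the same amount in every transcript (largest gap 0.000133 log2). Of the transcripts, 2145 were blank and 6955 were at 0 in every array, and the remaining 32245 were tested.

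A linear model with 1 mean per group and a batch term was fitted over all arrays with limma 3.58.1 (R 4.3.3), leaving 17 residual degrees of freedom, and p-values were adjusted over all transcripts by Benjamini-Hochberg. All p-values are two-sided, and intervals cover 95%. The number of arrays limits the precision. The script was tested on simulated data. Each gene was read from the transcript of highest mean annotated with that symbol alone. The members and lists were chosen with earlier results of these data known. The text names all measured members, up to 4 called genes (with the largest differences) and up to 2 others of each list in a comparison, and the 10 genes of most similar profile over 9 groups and 5 over the CNS groups. H2-DMb2 in F4/80hi 12w cells fell outside this rule and was named after its value was seen. Promoter windows came from RefSeq (GRCm38.p6). The replicate numbers of F4/80hi and F4/80low samples were checked for pairing. The alternatives covered the batch term, scaling, filters, variance estimation, naive and monocyte arrays averaged within batch, single batches, the methods' t-test and leaving out each array. The averaging took all naive or all monocyte arrays of a batch together, since the labels do not mark the technical repeats.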

Additional observations from a re-analysis of the deposited data

Results flagged for a closer look

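Naive microglia replicate 3 stood apart from the other 4 naive arrays for Tap2, at 8.41 against 7.55 to 7.73, the gap to the next array being 0.781 of the range of the group. The same array stood apart for Tapbp, at 8.74 against 7.89 to 8.02 in the others, where the gap was 0.858 of the range. Of 14 combinations of gene and group with 4 or more arrays, 0.7 are expected to be marked in this way by chance, since about 1 in 20 groups is.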

How the results depend on the processing

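No result changed its direction while called, and calls in DTR microglia held at 3 genes in every setting run for them. Without the fold threshold the number of genes called was 2 in F4/80hi 12w, F4/80hi 4w and F4/80low 4w cells against naive microglia, 2 in F4/80hi 12w against F4/80low 12w, 3 in F4/80hi 12w and 2 in F4/80hi 4w against monocytes, 1 in F4/80hi 12w against RPM and 1 against intestinal macrophages, and 5 each in monocytes and intestinal macrophages against naive microglia. Without the batch term 2 genes were called in F4/80hi 4w cells against naive microglia, and the median over the 7 genes was 0.35 in DTR against naive microglia, -0.59 in F4/80hi 12w against intestinal macrophages, -0.37 between the F4/80hi time points and -0.48 between the F4/80low time points. After quantile normalization it was 0.0922, 0.0620 and 0.0858 in F4/80hi 12w cells against monocytes, RPM and intestinal macrophages, 0.23 in F4/80hi 4w against monocytes, 0.32, 0.77 and 0.62 in monocytes, RPM and intestinal macrophages against naive microglia (1, 0 and 1 genes called) and 0.0236 between the F4/80hi time points, with 1 gene called in F4/80hi 12w against RPM. Over all transcripts, quantile normalization gave 4401, 4842 and 4142 calls in monocytes, RPM and intestinal macrophages against naive microglia. The main fit gave 4718, 5080 and 4206. For F4/80hi 12w against RPM these numbers were 4873 and 5169. With each array centred on its median 1 gene was called in F4/80hi 12w against monocytes, with 4773 of all transcripts called, against 4594 in the main fit. The Nlrc5 call of F4/80low 4w against naive microglia became 0 with the CNS arrays alone, batch 2 alone, or naive and monocyte arrays averaged within batch. Over all transcripts, calls in this comparison fell from 323 to 204, 154 and 105 in these settings. Leaving out the 3 arrays with more neutrophil transcripts was a setting chosen after seeing the data. It gave medians in F4/80hi 4w cells of 0.78 against naive microglia and 0.36 against monocytes. Each 4-week group was then 1 array that is assumed to vary like the other groups. Of 32245 transcripts, the methods' t-test gave 4004 at 12 weeks and 1330 at 4 weeks between the subsets by unadjusted p. Among the 7 genes it gave 2 at 12 weeks and 1 at 4 weeks by unadjusted p. After Benjamini-Hochberg it gave 0 of them at 12 weeks, where 260 of all transcripts passed. The cause of these changes was not tested.

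Leaving out 1 array at a time gave 1 to 2 genes called in F4/80hi 4w against naive microglia (2 without naive replicate 4), 0 to 1 in F4/80low 4w (0 without its replicate 1 or 2 or naive replicate 4), 0 to 1 in F4/80hi 4w against F4/80low 4w (1 without F4/80low 4w replicate 1), 0 to 1 in F4/80hi 12w against monocytes (1 without its replicate 2), 0 to 1 in F4/80hi 4w against monocytes (1 without either of its replicates) and 1 to 4 in RPM against naive microglia (1 without naive replicate 5). Calls over all transcripts are not given for these settings, so the counts cannot be set against a background. Medians ran from 0.36 to 0.78 in F4/80hi 4w against naive microglia (highest without its replicate 1), 0.15 to 0.50 in F4/80hi 12w against F4/80low 12w (lowest without F4/80hi 12w replicate 2), -0.20 to 0.36 in F4/80hi 4w against monocytes, -0.21 to 0.0584 between the F4/80hi time points and -0.12 to 0.27 for the change of the subset difference with time.

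With the replicate number as a block the subset comparison at 12 weeks had 1 gene called and that at 4 weeks 0, and no other call changed. By adjusted p alone, Tap1 in F4/80hi 12w against monocytes no longer passed under the block (0.0561) and Tap2 in F4/80hi 4w against monocytes did (0.0273). Deviations of samples of equal number correlated at -0.0789, -0.103 and -0.0551 at 12 weeks, and at 0.282 (replicate 1) and -9.10e-04 (replicate 2) at 4 weeks. Both 4-week arrays numbered 1 have more neutrophil transcripts. The study's text gives both subsets as sorted from the same brains, and the samples share replicate numbers. Deviations within such small groups depend on each other, so these correlations cannot decide whether equal numbers mark pairs. Groups of 2 or 3 arrays and unlabelled technical repeats limit all of these comparisons.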
